A study of Homo sapiens with 20 samples.

Results

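Transcripts of the activin and inhibin system were followed in HEK293T, an established line from human embryonic kidney with the SV40 large T antigen, after siRNA against HUWE1, which encodes a HECT-domain ubiquitin ligase. The 9 genes were taken by name from both deposited tables, which hold 45372 gene symbols each. They are the subunit genes INHA, INHBA, INHBB and INHBE, the antagonist genes FST and FSTL3, and the receptor genes ACVR1B, ACVR2A and ACVR2B. They were selected on the HUWE1 siRNA against non-targeting values of these same libraries in sets 1, 2 and 3, so those values are given below as a description with no test. There were 5 groups of 4 libraries: HUWE1 siRNA of set 1 with its own non-targeting (NT) libraries, and HUWE1 siRNA of set 2 and of set 3, which share 4 NT libraries. The labels describe the replicates as biological, and all groups are the same cell line. What sets 1, 2 and 3 differ in, the siRNA sequences and the time after transfection are not stated in the labels. Values are TPM, transcript abundances scaled for transcript length and to a fixed total per library.

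Activins and inhibins are secreted dimers of the TGF-beta family. Pairs of beta subunits form activins, and an alpha subunit paired with a beta subunit forms an inhibin, which opposes activin. Activins bind the type II receptors ACVR2A and ACVR2B, which recruit type I receptors such as ACVR1B (ALK4), and the complex phosphorylates SMAD2 and SMAD3, while follistatin and follistatin-like 3 bind the ligands outside the cell. INHBE, the subunit of activin E, is best known from liver and as a gene induced through ATF4 in stress of the endoplasmic reticulum.

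The genes lie apart in the genome except for one neighbourhood. In GENCODE release 29 (GRCh38), INHBE spans chr12:57452323-57459280 on the plus strand, and the gene of the related subunit INHBC ends 1494 bases before it on the same strand. INHBA lies on chr7:41667168-41705834 on the minus strand, INHBB on chr2:120346143-120351808 and INHA on chr2:219569162-219575713, both on the plus strand. FST is on chr5:53480409-53487134, FSTL3 on chr19:676365-683399, ACVR1B on chr12:51951667-51997078, ACVR2A on chr2:147844517-147930826 and ACVR2B on chr3:38453851-38493142, all on the plus strand. Genes on the opposite strand overlap INHA (OBSL1), INHBA (INHBA-AS1), ACVR2A (ORC4) and ACVR2B (ACVR2B-AS1). The library kit keeps strand, per the labels' protocols, but whether counting used it is not stated, so reads of such a pair may not be told apart. INHBA-AS1 averaged at most 0.0301 TPM in any group, against 31.2 to 38.4 TPM for OBSL1 and 10.6 to 14.2 TPM for ORC4 in the group means.

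The start regions of INHBA and INHBB are printed as a description, since these beta subunit genes parted in sets 2 and 3, as described below. Any bearing of the sequences on the levels was not tested. The printed regions are RefSeq windows of GRCh38.p14, 250 bases before to 50 bases after the annotated start, written in the direction of the gene. For INHBA that start lies inside the GENCODE span given above. INHBA's window is chr7:41703041-41703340, minus strand, with 43.3% G or C, and the capitals mark the SMAD element CAGACA, which begins 27 bases after the start. INHBB's window is chr2:120345886-120346185, plus strand, with 88.7% G or C.
INHBA: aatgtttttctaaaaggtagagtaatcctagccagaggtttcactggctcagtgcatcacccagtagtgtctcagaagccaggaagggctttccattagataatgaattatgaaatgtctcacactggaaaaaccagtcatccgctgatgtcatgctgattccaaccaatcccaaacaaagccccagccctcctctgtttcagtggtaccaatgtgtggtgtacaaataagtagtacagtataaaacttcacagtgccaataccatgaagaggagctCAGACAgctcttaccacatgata
INHBB: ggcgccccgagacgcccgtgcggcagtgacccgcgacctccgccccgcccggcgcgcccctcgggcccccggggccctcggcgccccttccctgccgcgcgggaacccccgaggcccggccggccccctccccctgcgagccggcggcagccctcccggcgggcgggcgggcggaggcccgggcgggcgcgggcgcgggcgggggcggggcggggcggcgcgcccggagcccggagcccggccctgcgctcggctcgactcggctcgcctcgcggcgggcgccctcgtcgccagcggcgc
The motifs searched on both strands were the E-box CACGTG, the AP-1 site TGANTCA, the core of the cyclic AMP response element TGACGT, and CAGACA. INHBB's window held none of them, nor did those of ACVR2A, ACVR2B and FSTL3. CAGACA was also found in the window of INHA. For ACVR1B it was in the window chr12:51953134-51953433 and not in the window chr12:51951449-51951748, which held the E-box. The window of INHA also held an AP-1 site, and that of FST an AP-1 site and the response element core. Of 35116 RefSeq windows of this length, 16.9% held CAGACA, 7.26% the E-box, 7.71% the AP-1 site and 7.98% the response element core. An entry was found for 8 of the 9 genes. INHBE had none, so its start region was not searched. A match is a run of letters and not a measured site.

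HUWE1 itself stood at 54.1% of its NT mean for set 1, 57.9% for set 2 and 51.9% for set 3, with no overlap between groups (two-sided exact permutation p = 0.0286 in each set, the smallest that 4 against 4 allows). Each library's TPM values sum to the same total, so depth is unknown and no counting interval can be given. NT replicates 1 and 4 of sets 2 and 3 stood apart: on the first component of within-group variation in that table they scored 24.75 and -25.03, and the other 10 libraries lay between -10.92 and 11.46. Neuronal and renal genes known from HEK293 (NEFL, NEFM, INA and PAX2) were present in every group, at 194 to 203 summed TPM in HUWE1 libraries and 262 to 281 in NT libraries of set 1. For sets 2 and 3 the sum was 245 to 274 in HUWE1 set 2, 220 to 226 in HUWE1 set 3 and 237 to 324 in NT libraries. Hepatocyte genes (ALB, APOA1, TTR and SERPINA1), which mark the tissue where INHBE is highest, summed to at most 2.97 TPM in any library. Of the granulosa and Sertoli genes, AMH was the only one at a group mean of 1 TPM or more, with group means of 6.52 to 8.25 TPM. FSHR, CYP19A1 and FOXL2 were at 0.0879 TPM or less in every group mean. In bulk RNA, fewer cells that express a gene and less RNA per cell cannot be told apart.

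The order of levels was led by receptors. ACVR1B averaged between 50.4 and 53.4 TPM and ACVR2B between 32.6 and 38.6 TPM over the 5 groups, and in each group the ranges of these genes lay apart from each other and from all lower genes. INHBE came next in each group, although its range overlapped those of FSTL3 and ACVR2A in HUWE1 set 1 and that of ACVR2A in the NT libraries of sets 2 and 3. ACVR2A and FSTL3 overlapped each other in all 5 groups, at group means of 5.97 to 8.51 TPM. INHBB followed at 4.49 to 6.18 TPM, overlapping FSTL3 in HUWE1 set 3 and both FSTL3 and ACVR2A in the NT libraries of sets 2 and 3, and INHA, INHBA and FST were lowest, with group means of 0.902 to 4.39 TPM. In set 1 INHBA was the lowest of the 9, and in each group of the second table it was the seventh. By mean level among the genes tested, ACVR1B lay at percentile 78.4 to 79.7 and INHBA at percentile 0.654 in HUWE1 set 1 and 23.4 in HUWE1 set 3.

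**Figure D1:**
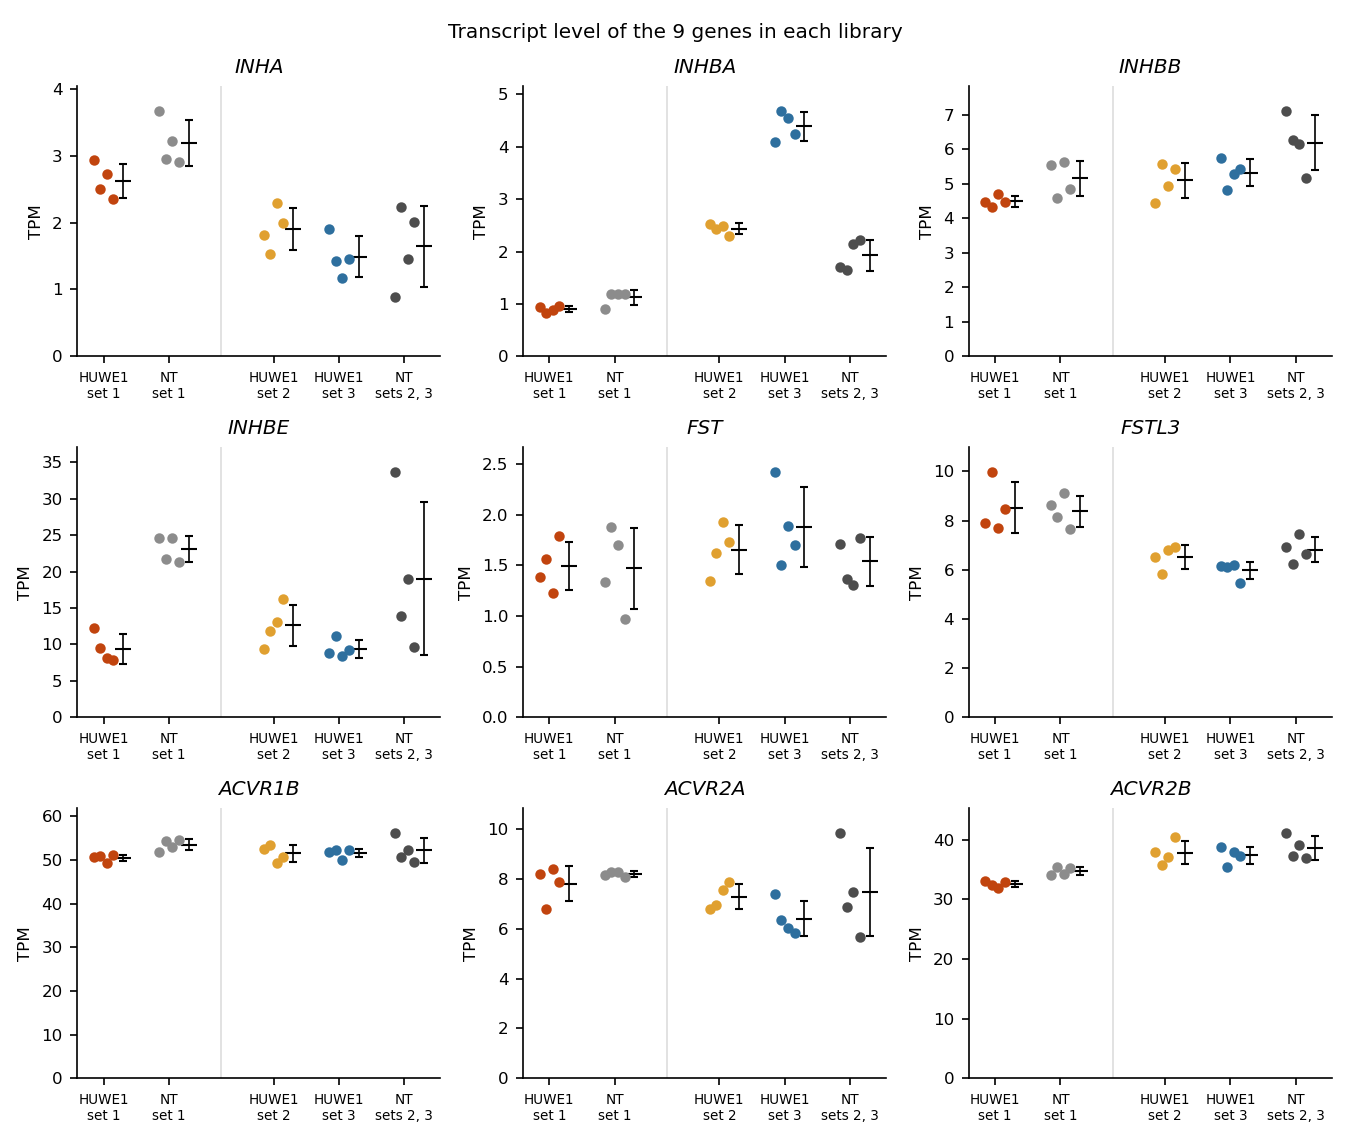
TPM (vertical axes, each starting at 0) of the 9 genes in every library, HUWE1 siRNA groups left of the NT group of their table, with a bar for the mean and SD of 4 libraries. INHBE is lower in every HUWE1 library of set 1 (7.80 to 12.3 TPM) than in every NT library of set 1 (21.4 to 24.7 TPM), and INHBA is highest in HUWE1 set 3 (4.08 to 4.69 TPM).

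INHBE, the subunit of activin E, had 12.3, 9.49, 8.08 and 7.80 TPM in HUWE1 libraries of set 1, against 24.6, 21.7, 24.7 and 21.4 TPM in its NT libraries. Every HUWE1 library lay below every NT library. The means were 9.42 ± 2.07 TPM and 23.1 ± 1.81 TPM (SD, n = 4 each), and the difference was -1.23 ± 0.12 on the log2(TPM + 1) scale (SE). Among the 9 genes this was the largest difference of set 1. All 8 other subunit, antagonist and receptor genes lay between -0.21 and 0.02 there.

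In sets 2 and 3 the INHBE ranges overlapped those of the controls. HUWE1 set 2 libraries had 9.43, 11.8, 13.1 and 16.2 TPM and HUWE1 set 3 libraries had 8.86, 11.2, 8.42 and 9.17 TPM, against 33.7, 13.8, 19.0 and 9.63 TPM in the shared NT libraries. The NT values spread more widely than either HUWE1 group, and the highest and lowest of them, replicates 1 and 4, are the libraries that stood apart. The log2 differences were -0.44 ± 0.28 in set 2 and -0.81 ± 0.28 in set 3. Without NT replicate 1 they were -0.13 and -0.50, without NT replicate 4 they were -0.70 and -1.07, and without both they were -0.36 in set 2 and -0.73 in set 3. The difference kept its sign in each case, while its size moved by more than 1.5 times in set 2 with either library left out and in set 3 without replicate 1.

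Other genes induced in stress of the endoplasmic reticulum or of amino acid supply were read beside INHBE from a list of 14 (such as ATF4, DDIT3, TRIB3 and ASNS). In set 1 this list summed to 2543 to 2624 TPM in HUWE1 libraries and 2909 to 2957 TPM in NT libraries. There 12 of 14 genes were called lower and none higher, where 17.9% of all 16057 genes tested were called lower. This list was chosen with earlier results of these data known, so the count and the p-values below are a description. TRIB3, a pseudokinase induced by ATF4, fell to 37.97 TPM, against 63.2 TPM in NT libraries (log2 difference -0.72, limma adjusted p = 7.74e-05). CEBPG, a partner of ATF4, fell by 0.42 (limma adjusted p = 3.46e-05) and PPP1R15A, a phosphatase subunit that reverses the eIF2-alpha mark, fell by 0.40 (limma adjusted p = 7.14e-05). In the second table the summed list was 2881 to 3026 TPM in HUWE1 set 2 and 2687 to 2903 TPM in HUWE1 set 3, against 3246, 2756, 3047 and 2721 TPM in NT replicates 1 to 4. NT replicate 1 was highest and replicate 4 lowest among controls both for this sum and for INHBE. limma called none of the 14 in set 2 (1 at an unadjusted p under 0.05) or in set 3 (3 at an unadjusted p under 0.05). The part of this list, or of the libraries that stood apart, in the INHBE values was not tested.

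INHBC, the subunit gene just before INHBE, is another liver gene and was low throughout. It averaged 0.384 ± 0.156 TPM in HUWE1 set 1 and 0.537 ± 0.0817 TPM in its controls (SD, n = 4 each), with overlapping ranges. In the second table it averaged 0.238 TPM in HUWE1 set 2 and 0.368 TPM in HUWE1 set 3, against 0.340 TPM in NT libraries.

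INHBA, the subunit of activin A, was slightly lower in set 1, as INHBB was, and higher in sets 2 and 3, where INHBB and INHBE were not. In set 1 it had 0.934, 0.821, 0.889 and 0.964 TPM in HUWE1 libraries, against 0.910, 1.20, 1.19 and 1.20 TPM in NT libraries. It did not reach the filter of 1 TPM in at least 4 libraries there and was not tested, and a fit without the filter put the difference at -0.16 ± 0.07. In the second table it had 2.53, 2.44, 2.48 and 2.29 TPM in HUWE1 set 2 and 4.08, 4.69, 4.54 and 4.24 TPM in HUWE1 set 3, against 1.70, 1.66, 2.14 and 2.22 TPM in the NT libraries. All 4 libraries of HUWE1 set 3 lay above all others, and those of HUWE1 set 2 lay above the controls by a small margin. The means were 2.44 ± 0.101 TPM in HUWE1 set 2 and 4.39 ± 0.276 TPM in HUWE1 set 3, against 1.93 ± 0.291 TPM (SD, n = 4 each). The log2 differences from the controls were 0.24 ± 0.08 in set 2 and 0.88 ± 0.08 in set 3. At these levels the added 1 TPM shrinks a fold change: with 0.1 TPM in its place the differences were 0.33 and 1.16.

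INHBB, the subunit of activin B, was slightly lower in HUWE1 groups, with overlapping ranges. It had 4.46, 4.33, 4.71 and 4.46 TPM in HUWE1 set 1, against 5.53, 4.597, 5.64 and 4.86 TPM in NT libraries. It had 4.45, 5.57, 4.93 and 5.43 TPM in HUWE1 set 2 and 5.75, 4.81, 5.29 and 5.43 TPM in HUWE1 set 3, against 7.12, 6.27, 6.16 and 5.17 TPM in NT libraries. In each set 1 control library fell within the range of the HUWE1 libraries. The log2 differences were -0.16 ± 0.07, -0.23 ± 0.09 and -0.18 ± 0.09 in sets 1, 2 and 3. With one library left out they ran over -0.30 to -0.17 in set 2 and -0.25 to -0.12 in set 3. The highest and lowest controls there were NT replicates 1 and 4, the libraries that stood apart.

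INHA encodes the alpha subunit, which turns a beta subunit into an inhibin. It had 2.94, 2.51, 2.72 and 2.35 TPM in HUWE1 set 1, against 3.68, 2.96, 3.22 and 2.91 TPM in NT libraries. The highest HUWE1 library lay just above the lowest NT library, and all other values were apart. HUWE1 set 2 had 1.82, 1.53, 2.29 and 1.99 TPM and HUWE1 set 3 had 1.91, 1.43, 1.17 and 1.46 TPM, against 0.892, 2.24, 1.45 and 2.00 TPM in NT libraries. The controls spanned nearly all of the HUWE1 values there. The log2 difference of INHA was -0.21 ± 0.08 for set 1, 0.16 ± 0.16 for set 2 and -0.07 ± 0.16 for set 3. OBSL1 on the other strand averaged 38.4 ± 2.26 TPM in HUWE1 set 1 and 32.7 ± 0.592 TPM in its controls (SD, n = 4 each), a difference of the opposite sign.

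The antagonists stayed close to their controls. FST, which binds activins almost irreversibly, had 1.39, 1.56, 1.23 and 1.79 TPM in HUWE1 set 1, against 1.33, 1.88, 1.70 and 0.973 TPM in NT libraries. It averaged 1.65 ± 0.241 TPM in HUWE1 set 2 and 1.88 ± 0.398 TPM in HUWE1 set 3, against 1.54 ± 0.238 TPM in NT libraries (SD, n = 4 each), with overlapping ranges. The log2 differences were 0.02 ± 0.13, 0.06 ± 0.11 and 0.18 ± 0.11 in sets 1, 2 and 3. FSTL3, a secreted relative of follistatin, was the more abundant antagonist in every group. It had 6.14, 6.09, 6.18 and 5.48 TPM in HUWE1 set 3, against 6.90, 6.24, 7.44 and 6.64 TPM in NT libraries, and these ranges did not overlap but nearly touched. The log2 differences of FSTL3 were 0.02 ± 0.08, -0.05 ± 0.07 and -0.16 ± 0.07 in sets 1, 2 and 3.

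The receptor genes differed by small amounts. ACVR1B, the type I receptor, had 50.5, 50.8, 49.3 and 51.0 TPM in HUWE1 set 1, against 51.8, 54.3, 53.0 and 54.6 TPM in NT libraries. ACVR2B, a type II receptor, had 33.0, 32.4, 31.9 and 33.0 TPM in HUWE1 set 1, against 34.1, 35.4, 34.2 and 35.2 TPM in NT libraries. Both were lower without overlap in set 1, with log2 differences of -0.08 ± 0.03 for ACVR1B and -0.09 ± 0.03 for ACVR2B. In the second table ACVR1B averaged 51.4 ± 1.90 TPM in HUWE1 set 2 and 51.6 ± 1.03 TPM in HUWE1 set 3, against 52.1 ± 2.93 TPM in NT libraries. ACVR2B averaged 37.8 ± 1.93 TPM and 37.4 ± 1.43 TPM in those HUWE1 groups, against 38.6 ± 1.96 TPM (SD, n = 4 each). All these ranges overlapped. ACVR2A, the other type II receptor, averaged 7.81 ± 0.713 TPM in HUWE1 set 1 and 8.20 ± 0.102 TPM in its controls. It averaged 7.29 ± 0.507 TPM in HUWE1 set 2 and 6.41 ± 0.690 TPM in HUWE1 set 3, against 7.47 ± 1.76 TPM in NT libraries, whose range of 5.68 to 9.86 TPM held all 8 HUWE1 values. As with INHBE, the highest and lowest of these controls were replicates 1 and 4, and this also held for INHBB, ACVR1B and ACVR2B.

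The counts for the 9 genes are given beside those for all genes. In set 1, limma at an adjusted p under 0.05 called 3 of the 8 tested (INHBE, ACVR1B and ACVR2B, all lower), where 30.3% of all genes were called and 17.9% were called lower. Under median-of-ratios scaling, and with HUWE1 replicate 2, 3 or 4 or NT replicate 4 left out, the count was 1. In set 2 it called 0 of 9 (2 at an unadjusted p under 0.05), where 0.0126% of 15860 genes were called and 8.83% had such an unadjusted p. In set 3 it called 1 of 9, INHBA, where 11.6% were called and 7.45% were called higher, and without NT replicate 4 it called 3. The ranges of HUWE1 and NT libraries lay apart for 3 of 8 genes in set 1, 1 of 9 in set 2 and 2 of 9 in set 3, where 31.7%, 3.69% and 17.2% of all genes did so. The median log2 difference of the 9 was -0.09 over the 8 tested in set 1, -0.02 in set 2 and -0.07 in set 3, beside -0.01, -0.00 and 0.01 for all genes. The genes were selected on these contrasts, so nothing is read from the counts. Sets 2 and 3 also share their controls.

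**Figure D2:**
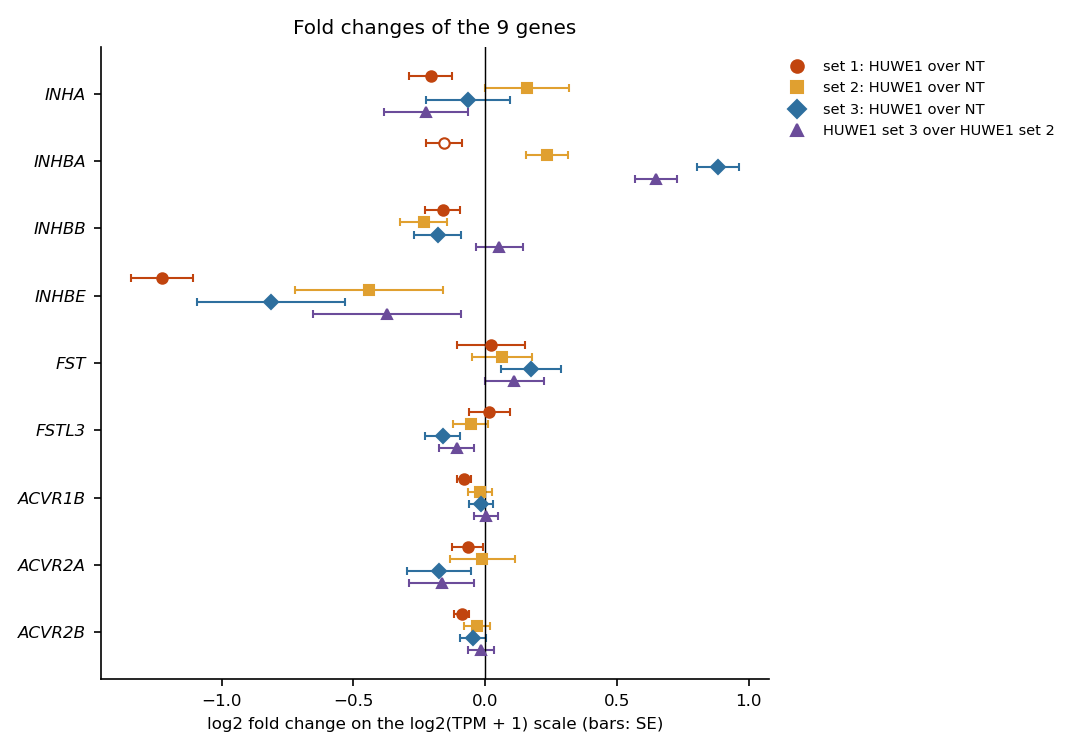
Log2 difference on the log2(TPM + 1) scale (horizontal axis) of the 9 genes, one marker per comparison with its standard error, and an open marker for INHBA in set 1, which was fitted without the filter. INHBE has the lowest values (-1.23, -0.44 and -0.81 in sets 1, 2 and 3) and INHBA the highest (0.88 in set 3), while the receptors stay between -0.18 and -0.01 in the 3 sets.

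The make-up of the subunit transcripts differed accordingly, without overlap for INHBE in set 1 and for INHBA in set 3. Of the summed TPM of INHA, INHBA, INHBB and INHBE, INHBE made up 53.6% ± 4.86 in HUWE1 set 1 and 70.9% ± 0.345 in its controls. Its share was 56.7% ± 4.50 in HUWE1 set 2 and 45.5% ± 3.54 in HUWE1 set 3, against 63.0% ± 11.6 in NT libraries (SD, n = 4 each). INHBA made up 21.3% ± 1.5 in HUWE1 set 3 and 11.3% ± 2.06 in HUWE1 set 2, against 7.48% ± 3.18 in the NT libraries. The INHBA shares of set 2 overlapped those of the controls. So did the INHBE shares of set 2 and, only just, of set 3. The 4 genes together summed to 17.4 ± 2.23 TPM in HUWE1 set 1 and 32.6 ± 2.52 TPM in its controls, and without INHBE to 8.02 ± 0.356 and 9.47 ± 0.715 TPM. Most of the gap in set 1 was thus in INHBE. Without INHBE the sum was 9.44 ± 0.433 TPM in HUWE1 set 2 and 11.2 ± 0.371 TPM in HUWE1 set 3, against 9.76 ± 0.318 TPM in NT libraries. The follistatin genes FST and FSTL3 summed to 10.01 ± 1.18 TPM in HUWE1 set 1 and 9.85 ± 0.905 TPM in its controls. Beta subunit TPM per follistatin TPM was therefore 1.5 ± 0.300 in HUWE1 set 1 and 2.99 ± 0.197 in its controls. The ratio was 2.46 ± 0.309 in HUWE1 set 2 and 2.45 ± 0.268 in HUWE1 set 3, against 3.24 ± 1.23 in NT libraries, whose range of 2.02 to 4.94 covered it. These are ratios of transcripts and say nothing of the secreted proteins.

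**Figure D3:**
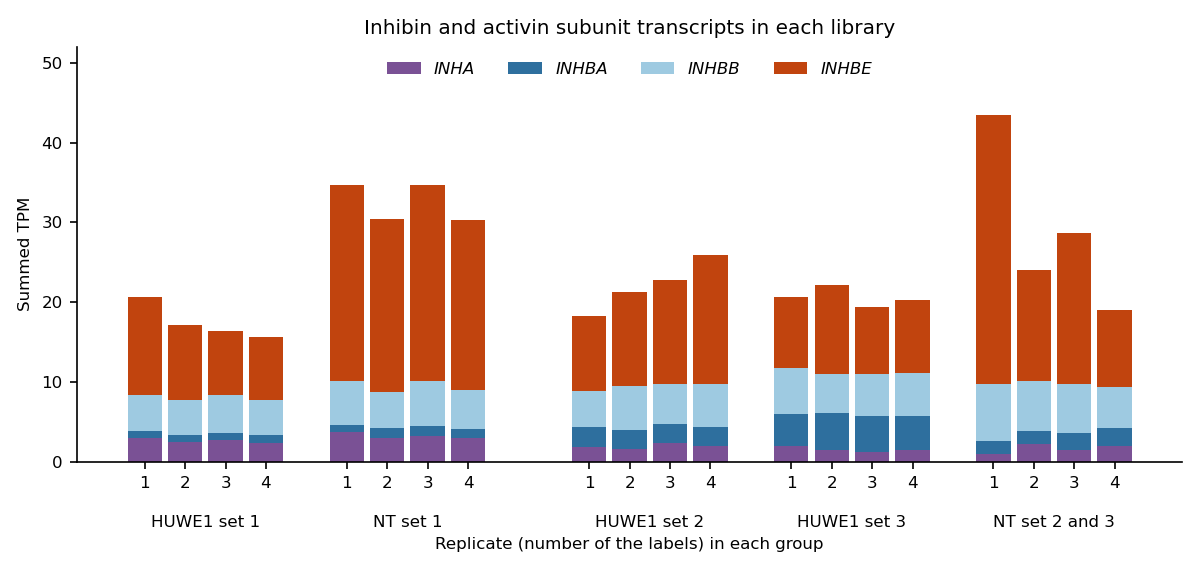
Summed TPM (vertical axis, from 0) of INHA, INHBA, INHBB and INHBE stacked for each of the 20 libraries, HUWE1 siRNA groups left of the NT group of their table. HUWE1 libraries of set 1 sum to 15.6 to 20.7 TPM and their NT libraries to 30.3 to 34.7 TPM, with most of the gap in the INHBE part, and the INHBA part is tallest in HUWE1 set 3.

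HUWE1 set 3 against HUWE1 set 2 is the difference of 2 contrasts on which the 9 genes were selected, so their values there are again a description with no test. INHBA averaged 4.39 TPM in HUWE1 set 3 and 2.44 TPM in HUWE1 set 2, a log2 difference of 0.65 ± 0.08, with all 4 libraries of set 3 above all 4 of set 2. Over the alternatives tried, the difference lay between 0.62 and 0.82. Among the 9 genes it was the largest difference of this comparison. The other 8 overlapped between the sets, where the ranges of 13.2% of all genes lay apart. INHBE differed by -0.37 ± 0.28, INHA by -0.23 ± 0.16 and ACVR2A by -0.17 ± 0.12. FSTL3, FST, INHBB, ACVR1B and ACVR2B lay between -0.11 and 0.11. HUWE1 stood at 84.8 ± 5.42 TPM in HUWE1 set 3 and 94.6 ± 2.26 TPM in HUWE1 set 2 (SD, n = 4 each), and the part of that gap in the INHBA difference was not tested.

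The rest of the pathway was read from a list of 91 genes in 5 roles, of which 77 were tested in set 1 and 78 in the second table. This list too was chosen with earlier results of these data known, so its counts and p-values are a description. In set 1, 3 rose and 13 fell, 20.8% of those tested beside 30.3% of all genes, and the median log2 difference was -0.01, as for all genes. In set 2 limma called none (7 at an unadjusted p under 0.05). In set 3, 7 rose and 5 fell, 15.4% beside 11.6% of all genes, with a median of -0.01 beside 0.01. The set 3 count depended on single libraries, running from 2 to 28 with one left out, and was highest without NT replicate 4.

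Among other ligands, BMP2, which signals through SMAD1 and SMAD5, was the only one called in either set. It rose to 30.6 ± 0.891 TPM in HUWE1 set 1, against 22.7 ± 1.49 TPM in its controls (SD, n = 4 each; log2 difference 0.41 ± 0.05, limma adjusted p = 0.000264). It rose to 26.3 ± 1.05 TPM in HUWE1 set 3, against 22.2 ± 1.38 TPM (SD, n = 4 each; 0.23 ± 0.05, limma adjusted p = 0.0181), a call lost under 4 of 15 alternatives. In HUWE1 set 2 it was at 21.8 ± 0.241 TPM. GDF1, singled out after its values were seen, had the widest difference of all listed ligands in set 3 on the log2(TPM + 1) scale (-1.37). It averaged 1.63 ± 3.27 TPM in HUWE1 libraries and 3.79 ± 2.49 TPM in NT libraries (SD, n = 4 each). The HUWE1 libraries ran from 0 to 6.54 TPM with a median of 0, so that mean is not a typical level. The NT libraries ran from 1.12 to 7.12 TPM, and GDF1 did not pass the test (limma adjusted p = 0.180).

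Of the proteases that cut the ligand precursors and the proteins that bind them, PCSK5, a proprotein convertase, rose in set 1 (0.25 ± 0.06, limma adjusted p = 0.00732). In set 3 PCSK6, another convertase, rose by 0.27 and FSTL1, a secreted follistatin-like protein, by 0.19 (limma adjusted p = 0.0329 and 0.026). BAMBI, a pseudoreceptor that blocks TGF-beta family signalling, fell by 0.53 in set 3 (limma adjusted p = 0.0331), at 59.3 ± 6.15 TPM in HUWE1 libraries and 87.4 ± 19.1 TPM in NT libraries (SD, n = 4 each), with overlapping ranges. These 3 calls of set 3 were lost under 7 to 10 of 15 alternatives. Of 9 other receptors, BMPR2, a type II receptor for BMPs, rose in set 1 (0.26 ± 0.08, limma adjusted p = 0.0399, lost under 7 of 13 alternatives). ACVR1 (ALK2), a type I receptor, rose in set 3 with overlapping ranges (0.20 ± 0.06, limma adjusted p = 0.0499, lost under 10 of 15).

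Of the SMADs and their regulators, 4 of 23 fell in set 1 and none rose, 17.4% beside 17.9% of all genes called lower. SMAD3, the transducer shared by activin and TGF-beta, fell by 0.14 (limma adjusted p = 0.00775), at 26.6 ± 0.632 TPM in HUWE1 libraries and 29.5 ± 0.849 TPM in NT libraries (SD, n = 4 each). STRAP, a receptor-associated inhibitor, fell by 0.12 and ZFYVE9 (SARA), which presents SMADs to the receptor, fell by 0.14 (limma adjusted p = 0.00725 and 0.00869). In set 3 NEDD4L, a ubiquitin ligase for activated SMAD2 and SMAD3, rose by 0.29 ± 0.05 (limma adjusted p = 0.0114), a call kept under all 15 alternatives. CITED2, a transcriptional cofactor, fell by 0.49 and SMAD6, an inhibitory SMAD, by 0.36 (limma adjusted p = 0.0371 and 0.0379), calls lost under 9 and 10 of 15 alternatives. The ranges of CITED2 overlapped.

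Of genes known as targets of TGF-beta or activin, 9 of 22 fell in set 1 and none rose, 40.9% beside 17.9% of all genes called lower. The targets were listed with earlier results of these data known, so nothing more is read from this share. KLF10, an early response factor, fell to 22.6 ± 1.22 TPM, against 29.8 ± 1.06 TPM in NT libraries (SD, n = 4 each; log2 difference -0.38 ± 0.04, limma adjusted p = 0.000287). SNAI2, a repressor of epithelial genes, was at 3.74 ± 0.322 TPM in HUWE1 libraries and 5.98 ± 0.363 TPM in NT libraries (-0.56 ± 0.06, limma adjusted p = 0.000334). In set 3, 2 targets rose and 1 fell. CDKN1A, the cell cycle inhibitor p21, which p53 also drives, rose to 64.7 ± 2.85 TPM, against 44.1 ± 2.38 TPM (SD, n = 4 each; 0.55 ± 0.05, limma adjusted p = 0.000218). PMEPA1, which sequesters receptor SMADs, rose to 6.77 ± 0.479 TPM, against 4.95 ± 0.280 TPM (SD, n = 4 each; 0.38 ± 0.08, limma adjusted p = 0.0176), lost under 3 of 15 alternatives. TSC22D1, a TGF-beta stimulated leucine zipper protein, fell in set 3 (-0.38 ± 0.11, limma adjusted p = 0.0498, lost under 12 of 15) and in set 1 (-0.18 ± 0.03, limma adjusted p = 0.00262). Its ranges overlapped in set 3. Whether targets differed between sets 1 and 3 was not tested, since the tables were normalized apart.

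**Figure D4:**
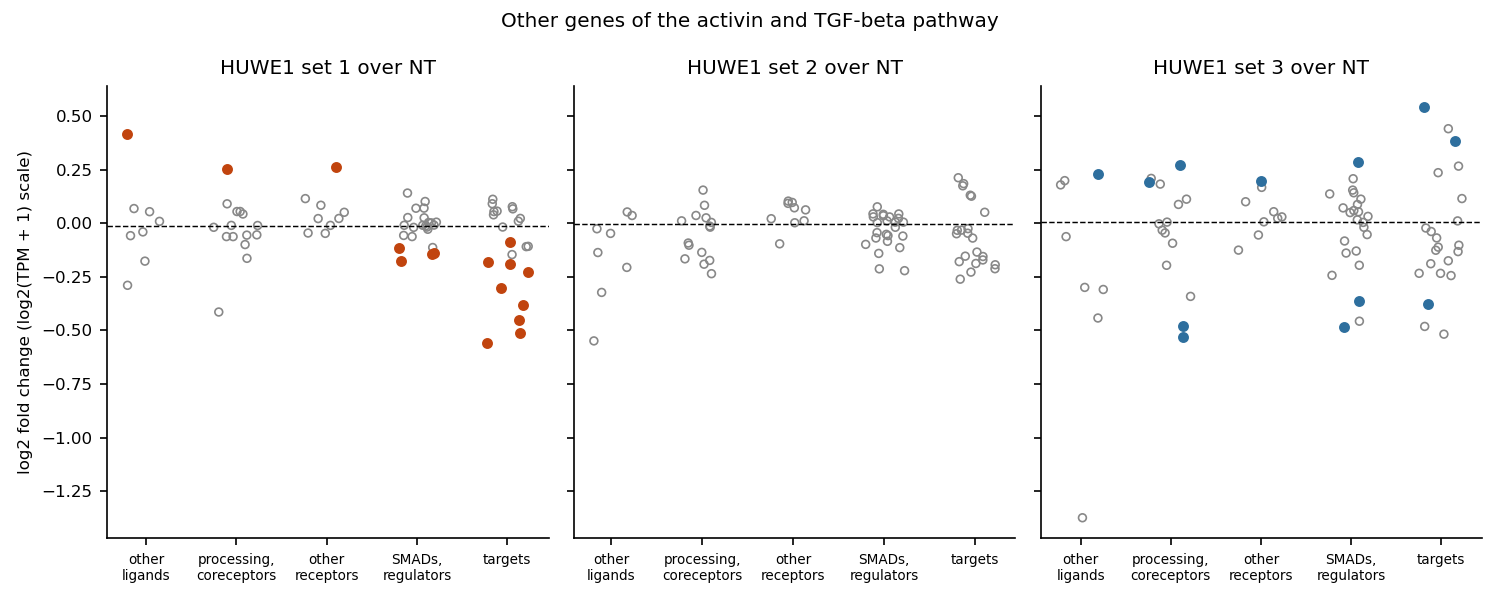
Log2 difference between HUWE1 siRNA and NT libraries on the log2(TPM + 1) scale (vertical axis) of the other pathway genes by role, one panel a set, with filled points called by limma, open points not called and a dashed line at the median of all genes tested. In set 1, 9 targets are filled and lower, in set 2 no point is filled, and in set 3 there are 7 filled points above and 5 below.

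Between HUWE1 set 3 and HUWE1 set 2, 3 of the 78 pathway genes rose and none fell, 3.85% beside 0.517% of all genes. CDKN1A rose by 0.59 ± 0.05 (limma adjusted p = 0.00024), a call kept under all 14 alternatives. BMP2 rose by 0.26 and PMEPA1 by 0.41 (limma adjusted p = 0.0414 and 0.0434), calls lost under 11 and 10 of 14 alternatives.

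The genes whose levels ran closest to each member were ranked among 11173 genes by the lower of the Pearson correlations over the 8 libraries of set 1 and over the 12 libraries of the second table. Libraries share treatment groups and, in the second table, the NT libraries that stood apart, so these values are a description. INHBE had the closest companions: PDRG1, a prefoldin-like protein (r = 0.976), HEY1, a repressor in the Notch pathway (0.974), ZNF853 (0.974), RP9 (0.973) and ALKBH1, a nucleic acid demethylase (0.972). Like INHBE, all 5 were lower in HUWE1 libraries in each set, with log2 differences of -0.264 to -0.585 in set 1 and -0.268 to -0.545 in set 3. The ranking used these same HUWE1 and NT libraries, so the shared direction follows from it and is no separate result. ACVR2A ran closest to USP47, a deubiquitinase (0.933), and DCUN1D3 (0.886), and ACVR2B to MAP1B (0.885) and PPP2R5A (0.875). INHBB ran closest to KLF13 (0.832) and UFSP2 (0.83), ACVR1B to IFFO2 (0.83) and MARS (0.814), FSTL3 to COPS7A (0.793) and PRR22 (0.725), and INHA to CHMP2A (0.761) and ZNF555 (0.756). FST had the weakest companions, FOCAD (0.641) and ZNF324B (0.558). INHBA was not ranked because it was below the filter in set 1.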

How the data were processed

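RNA was made into stranded mRNA libraries and sequenced on a NovaSeq instrument, per the labels' protocols. TPM values were deposited by the authors in 2 tables, one for set 1 and one for sets 2 and 3. Per the submitters' processing notes, reads were placed on hg38. The aligner, the counting tool and the gene annotation were not given in the sources used here. Values of log2(TPM + 1) were fitted with limma 3.58.1 in R 4.3.3 (mean trend in the variance), for genes that reached 1 TPM in at least 4 libraries of their table. Set 1 was fitted on its 8 libraries and the second table as 1 model of 12, and a call needed an adjusted p (Benjamini-Hochberg, over all genes tested) under 0.05. Fold changes on this scale understate the change of low genes. The procedure was tested on simulated data with noise drawn independently for each gene and library. Such data lack the variation that genes shared within groups of the second table, so the test does not cover it.

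The genes and lists were chosen with earlier results of these data known. Named were the 9 genes, HUWE1, up to 3 called genes per role with the smallest p in each comparison, and the 5 genes most like INHBE and 2 most like each other member, with clone-type names passed over. A gene that this rule names is not reported here. All of the 91 pathway genes were found, 1 through an older symbol. Alternatives were a pseudocount of 0.1, no filter, median-of-ratios scaling, no variance trend, a block for the replicate number, a fit of the 2 compared groups alone, and leaving out libraries.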

Additional observations from a re-analysis of the deposited data

Results flagged for a closer look

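INHBA in set 1 had 0.9105 TPM in NT replicate 1, far from the other 3 controls at 1.19 to 1.20 TPM and inside the range of the HUWE1 libraries. FSTL3 had 5.478 TPM in HUWE1 set 3 replicate 4, below the other 3 at 6.09 to 6.18 TPM. ACVR1B had 50.03 TPM in HUWE1 set 3 replicate 3, below the other 3 at 51.9 to 52.2 TPM. These are 3 of 45 gene and group pairs in which a single library lay far from the rest, and chance gives about 1 in 20.

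INHBA differed between HUWE1 set 3 and HUWE1 set 2 by 0.648 on the log2 scale, with no overlap between their libraries. The 9 genes were selected on the contrasts that make up this difference, so it is a description and no test is given. Its HUWE1 libraries lay on opposite sides of the control mean in the 2 tables: the log2 difference was -0.157 in set 1, 0.235 in set 2 and 0.884 in set 3. The difference between set 1 and the other sets was not tested.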

How the results depend on the processing

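With one library left out at a time, genes called ran over 1 to 2 in set 2, 162 to 5874 in set 3 (most without NT replicate 4) and 20 to 68 in set 3 against set 2, where the full fits called 2, 1839 and 82. Pathway genes called ran over 2 to 28 in set 3 and 1 to 2 in set 3 against set 2. Of the 9 genes, 1 to 3 were called in set 1 and 1 to 3 in set 3. In set 2, median-of-ratios scaling, no variance trend, the block and the fit of only the 2 groups each called 1 gene. In set 3, no filter gave 698 genes (5 of the pathway), the fit of only the 2 groups 340 (3 of the pathway), and leaving out NT replicates 1 and 4 together 3226 genes and 2 of the 9. In set 3 against set 2, no filter gave 42 genes (1 of the pathway) and only the 2 groups 328 (5 of the pathway). Counts for the 9 genes were added after the values were seen. Replicate numbers showed no pairing of the samples in set 1 (correlations of 0.000215 to 0.0521). In the second table the correlations ran from -0.481 to 0.407. Both ends were of replicate 4, whose NT library stood apart, so these values do not settle whether samples were paired there. With the replicate number as a block, 693 genes (4 of the pathway) were called in set 3, 17 (1 of the pathway) in set 3 against set 2 and 1 of the 9 in set 1. Median-of-ratios scaling also called 1 of the 9 in set 1, and moved the share of higher genes among those called to 50.5% in set 1, against 40.8% without it, to 48.9% in set 3, against 64.2%, and to 50% in set 3 against set 2, against 59.8%. Signs of small differences turned in several cases. In set 3 against set 2, ACVR1B was -0.0047 under that scaling and ran over -0.0169 to 0.0220 with one library left out, and ACVR2B over -0.0405 to 0.0160. Against NT, the sign turned under some alternative for ACVR2A (-0.12 to 0.12), ACVR1B and ACVR2B in set 2, for INHA (-0.22 to 0.04) and ACVR1B in set 3, and for FST (-0.08 to 0.10) and FSTL3 in set 1. HUWE1 kept its direction and call against NT in each set. The set 1 counts of all genes and of pathway genes (14 to 19) stayed within 1.5 times. The causes of these shifts were not tested. Depth is unknown, so low genes such as INHBA in set 1 carry an unknown counting error.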
